A study of Homo sapiens with 8 samples.

Results

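The genes described here are 10 human genes of the squamous and cornified envelope programme, IVL, CSTA, SPRR1A, SPRR1B, SPRR3, KRT5, KRT6A, KRT14, SERPINB5 and TP63, out of 24630 genes in the count tables. They were picked by name with their RNA values in these cells already known, and IVL and CSTA because they differ between the lines, so their RNA values below are a description and carry no test. The lines are PC9R and PC9, both labelled as lung cancer cells and used at passages 8 to 12. PC9R was selected out of PC9 with gefitinib, an inhibitor of the EGFR kinase, over 1 to 2 weeks, and no gefitinib exposure is given for PC9, so drug and line cannot be told apart. Each line had 2 RNA-seq libraries, 1 library of DHS (DNase hypersensitive sites, which mark open chromatin) and 1 library of H3K4me2, a histone mark of promoters and enhancers. Whether the RNA libraries of a line stem from different cultures, and how many clones PC9R holds, is not in the labels.

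Stratified squamous epithelia such as epidermis renew from a basal layer that makes keratins 5 and 14 under the transcription factor p63, the product of TP63. Cells that leave this layer build a cornified envelope, a shell of involucrin, small proline-rich proteins and other precursors that transglutaminases join under the plasma membrane. Many of the precursor genes lie side by side on chromosome 1 in the epidermal differentiation complex. The lining of the lung's air sacs is a simple epithelium that does not cornify.

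The promoters of the genes with a peak at the start in 1 line only, or with called RNA, are shown where a promoter sequence was at hand, because they carry letters shared within the group. They come from RefSeq (GRCh38.p14) and run from 250 bases before to 50 bases after the start, and 7 of the 10 genes had an entry (all but CSTA, KRT6A and KRT14). Capitals mark 3 motifs searched on both strands, TGANTCA (bound by AP-1 factors), TATAAA (the TATA box) and GGGCGG (a GC box). The TTTATA of TP63 is TATAAA read on the other strand and lies after the start, and the GC boxes of SERPINB5 share 1 base.
IVL promoter, chr1:152908296-152908595, plus strand: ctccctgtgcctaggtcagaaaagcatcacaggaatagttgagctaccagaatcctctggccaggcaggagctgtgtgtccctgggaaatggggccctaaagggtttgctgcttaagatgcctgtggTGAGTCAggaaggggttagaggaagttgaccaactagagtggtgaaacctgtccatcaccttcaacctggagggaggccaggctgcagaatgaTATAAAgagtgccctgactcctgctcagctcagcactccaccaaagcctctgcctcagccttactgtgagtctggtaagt
SPRR1A promoter, chr1:152983831-152984130, plus strand: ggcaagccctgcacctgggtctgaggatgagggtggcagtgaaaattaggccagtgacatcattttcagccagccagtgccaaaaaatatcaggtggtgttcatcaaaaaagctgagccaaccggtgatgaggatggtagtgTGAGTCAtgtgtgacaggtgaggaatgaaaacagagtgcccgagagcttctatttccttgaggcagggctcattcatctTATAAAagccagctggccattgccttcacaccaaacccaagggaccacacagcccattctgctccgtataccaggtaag
SPRR1B promoter, chr1:153030953-153031252, plus strand: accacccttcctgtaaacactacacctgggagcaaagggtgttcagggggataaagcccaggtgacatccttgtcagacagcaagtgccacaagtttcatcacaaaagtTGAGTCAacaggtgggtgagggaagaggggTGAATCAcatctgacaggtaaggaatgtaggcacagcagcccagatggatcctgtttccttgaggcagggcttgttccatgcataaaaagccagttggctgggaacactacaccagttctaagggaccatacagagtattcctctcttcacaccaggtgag
SPRR3 promoter, chr1:153001499-153001798, plus strand: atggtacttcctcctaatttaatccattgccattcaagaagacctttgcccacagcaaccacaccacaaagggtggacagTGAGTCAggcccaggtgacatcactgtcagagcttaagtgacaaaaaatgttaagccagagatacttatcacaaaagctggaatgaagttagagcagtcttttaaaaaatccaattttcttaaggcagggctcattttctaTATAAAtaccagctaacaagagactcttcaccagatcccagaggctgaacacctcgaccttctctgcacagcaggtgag
SERPINB5 promoter, chr18:63476708-63477007, plus strand: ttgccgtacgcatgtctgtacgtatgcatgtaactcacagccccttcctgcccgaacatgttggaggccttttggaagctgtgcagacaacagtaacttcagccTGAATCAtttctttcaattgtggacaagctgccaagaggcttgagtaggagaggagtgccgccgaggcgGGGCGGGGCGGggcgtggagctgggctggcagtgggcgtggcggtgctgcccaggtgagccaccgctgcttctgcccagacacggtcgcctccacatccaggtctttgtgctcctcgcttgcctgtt
TP63 promoter, chr3:189631139-189631438, plus strand: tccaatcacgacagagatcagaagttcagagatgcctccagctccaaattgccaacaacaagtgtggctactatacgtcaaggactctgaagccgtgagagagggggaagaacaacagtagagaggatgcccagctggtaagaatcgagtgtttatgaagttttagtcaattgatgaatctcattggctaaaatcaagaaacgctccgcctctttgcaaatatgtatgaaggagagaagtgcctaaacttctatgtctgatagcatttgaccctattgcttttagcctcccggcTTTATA

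The AP-1 letters were in 5 of the 7 promoters (IVL, SPRR1A, SPRR1B, SPRR3 and SERPINB5), against 7.71% of the 35116 promoters in the table. They begin 123 bases before the start in IVL, 108 in SPRR1A, 141 and 111 in SPRR1B, 170 in SPRR3 and 146 in SERPINB5. TATAAA was in 4 of the 7, against 11.5% of all promoters, and lies 30 bases before the start in IVL and 29 in SPRR1A and SPRR3. The GC box was in 1 of the 7, SERPINB5, against 45.0% of all promoters. SPRR1A, SPRR1B and SPRR3 are related copies of 1 gene family, so their promoters are not independent examples, and a match of letters is not evidence of binding.

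The 4 RNA libraries held 16013058 to 32515891 counts, library 1 of each line at about the same depth and library 2 at a lower one, and 12660 genes passed the filter on low counts. Of the 10 genes 8 passed, all but SPRR3 and TP63. Levels are CPM, counts scaled to a common library size by TMM. The label of lung cancer cells was checked against epithelial and lung markers. General epithelial genes were abundant, with a summed level of 11778 to 20579 CPM in PC9R and 11389 to 25802 CPM in PC9 over 10 markers, of which ESRP1 was at 0. Of 12 lung adenocarcinoma and alveolar markers in the tables, SFTPA1, SFTPC, MUC1, SLC34A2 and CLDN18 were at 0 in every library, NKX2-1 had 1 count in all, and FOXA1 made up most of the sum. The 3 that passed the filter were FOXA1, NAPSA and SFTPD. FOXA1 averaged 216 ± 45.1 CPM in PC9R and 296 ± 39.1 CPM in PC9 (SD, n = 2 each). NAPSA averaged 1.37 ± 0.925 CPM in PC9R and 0.655 ± 0.360 CPM in PC9, and SFTPD 1.08 ± 0.770 CPM in PC9R and 0.0941 ± 0.133 CPM in PC9. In bulk RNA, fewer cells making a transcript and less transcript per cell cannot be told apart.

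Involucrin and cystatin A, both cornified envelope proteins, were the pair of the 10 with the widest gap between the lines. IVL, the gene of involucrin, a transglutaminase substrate laid down early in envelope assembly (chr1:152881022-152884362, hg19), had 1355 and 353 counts in PC9R, against 7 and 4 in PC9. That is 38.6 and 20.98 CPM in PC9R, against 0.220 and 0.267 CPM in PC9. Both PC9R libraries stood far above both PC9 libraries, where IVL was close to undetected. The log2 fold change was 6.93 ± 0.83 (edgeR, SE, 2 libraries a line), and the ratio of CPM was 176 between the libraries 1 and 78.6 between the libraries 2. With only 11 counts over both PC9 libraries, the ratio of summed counts was 140, with a 95% exact interval for counting error alone of 78.1 to 281.

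CSTA encodes cystatin A, an inhibitor of cysteine proteases that is cross-linked into the envelope, and lies apart from the complex on chromosome 3 (chr3:122044095-122060816). It had 476 and 363 counts in PC9R, against 10 and 6 in PC9. Its levels were 13.6 and 21.6 CPM in PC9R, against 0.314 and 0.400 CPM in PC9. Again the lines did not overlap, and here library 2 was the higher one in PC9R. The log2 fold change was 5.62 ± 0.77, with a ratio of 43.2 between the libraries 1 and 53.9 between the libraries 2.

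The small proline-rich genes, whose products are flexible cross-bridges of the envelope, gave a mixed picture. SPRR1A had 14 and 12 counts (0.399 and 0.713 CPM) in PC9R, against 2 and 3 counts (0.0627 and 0.200 CPM) in PC9. Its lines did not overlap, but PC9 held 5 counts in all, and the ratio of summed counts was 4.69 with a counting interval of 1.77 to 15.7. SPRR1B had 50 and 271 counts (1.42 and 16.1 CPM) in PC9R, against 13 and 112 counts (0.408 and 7.47 CPM) in PC9. Here the lines overlapped, because library 2 was far above library 1 in both lines. Within the libraries 1 the ratio of PC9R to PC9 was 3.49, and within the libraries 2 it was 2.16. SPRR3, the esophageal member of the family, had 1 count in each PC9R library, against 1 and 0 in PC9, all at or under a floor of 3 counts, so no fold is given.

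The basal and stress keratins did not follow IVL. KRT5, the type II keratin of basal cells, had 2.59 and 3.57 CPM in PC9R, against 2.98 and 5.67 CPM in PC9, and the lines overlapped. KRT14, its type I partner, was lower in PC9R, at 4 and 1 counts (0.114 and 0.0595 CPM), against 20 and 16 counts (0.627 and 1.07 CPM) in PC9. The KRT14 libraries of the lines did not overlap, and its log2 fold change was -3.11 ± 0.91, but PC9R held 5 counts in all and the ratio of summed counts was 0.125, with a counting interval of 0.0384 to 0.321.

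KRT6A, a type II keratin that epidermis makes on wounding and stress, had 76 and 1199 counts in PC9R, against 40 and 453 in PC9. Its levels were 2.16 and 71.3 CPM in PC9R, against 1.25 and 30.2 CPM in PC9, so that library 2 of PC9 lay above library 1 of PC9R. The ratio of PC9R to PC9 was 1.73 within the libraries 1 and 2.36 within the libraries 2, and the log2 fold change of 1.23 ± 1.56 was smaller than its error. Without library 2 of PC9R the log2 fold change of KRT6A was -2.88 and that of SPRR1B was -1.47, against 1.17 for SPRR1B with all libraries. Such a fit sets library 1 of PC9R against both libraries of PC9, so the gap between library 1 and library 2 enters it. KRT6A shares long near-identical stretches with KRT6B and KRT6C, so its reads could have been split among them by the counting.

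SERPINB5 and TP63 are not parts of the envelope. SERPINB5, a clade B serpin known as maspin and made by many epithelia, had 192 and 367 CPM in PC9R, against 177 and 483 CPM in PC9, and the lines overlapped, with library 2 the higher one in each. TP63 had 0 counts in each of its 6 accessions in every library. A count of 0 allows up to 3 counts, or 0.0854 and 0.178 CPM in PC9R, against 0.0941 and 0.200 CPM in PC9. The 8198 genes with several accessions drew 6.74% to 7.07% of all counts per library. For that reason the 0 of TP63 was not read as absence of its RNA, and SPRR1A and SPRR3, with 2 accessions each, share this limit. So does each gene named here at 0 that has several accessions, among them all 5 lung markers at 0, ESRP1, DCN and ITGAM.

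Over the 8 genes that passed the filter, edgeR called 2 higher (IVL and CSTA) and 0 lower in PC9R at an adjusted p under 0.05, where 0.19% and 0.0632% of all tested genes were called. DESeq2 (2.06% of all tested genes higher and 0.948% lower) and limma-voom (0.427% and 0.15%) called the same pair and no other of the 8. By library order, 3 of the 8 had both PC9R libraries above both PC9 libraries (16.9% of all tested genes), 1 had both below (14.9%), and 4 overlapped. The median log2 fold change was 1.20 over the 8 genes and -0.01 over all tested genes. With upper quartile scaling edgeR called 0 of all tested genes, 919 of which had an unadjusted p under 0.05. The filter on low counts may have kept IVL, CSTA and SPRR1A through PC9R alone, and KRT14 through PC9 alone. For such genes a gap between the lines is partly built in. As the genes were also picked with these values in view, nothing is read from these counts.

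**Figure D1:**
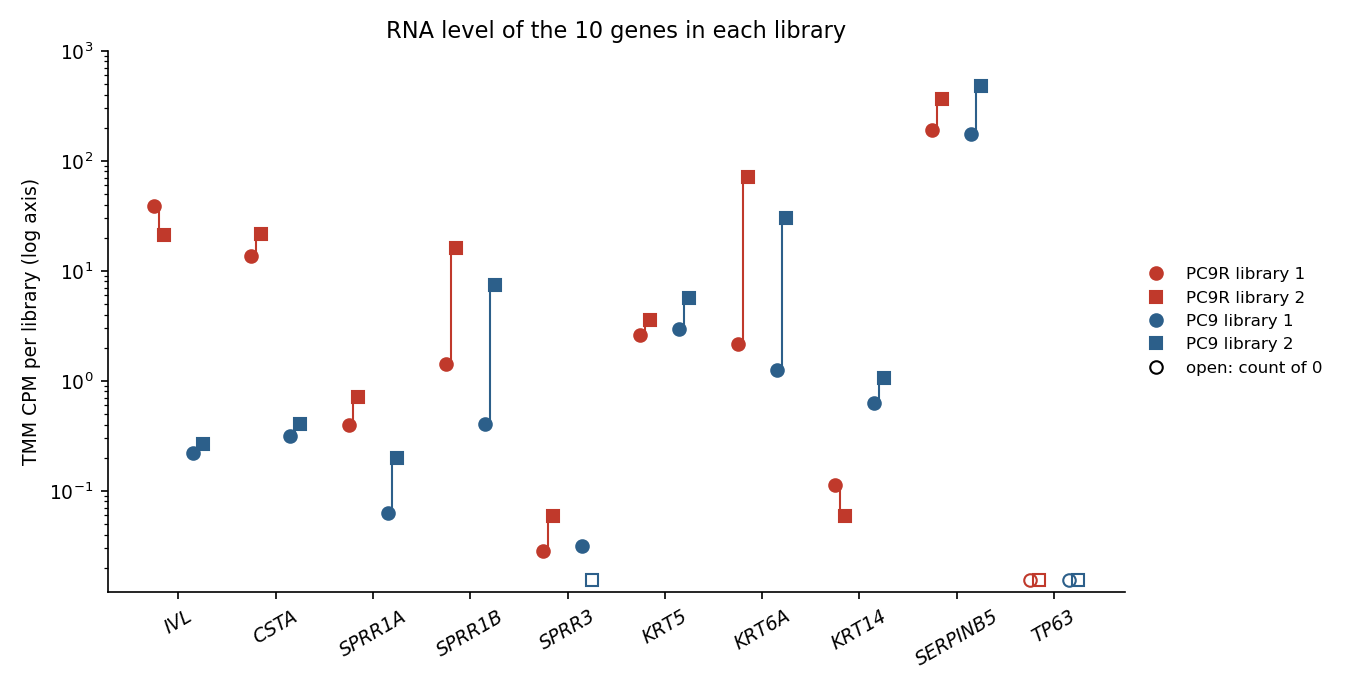
RNA level of each gene in CPM on a log axis, 1 point a library, PC9R in red and PC9 in blue, circles for library 1 and squares for library 2, lines joining the libraries of a line, and open symbols at the bottom for a count of 0. IVL at 38.6 and 20.98 CPM and CSTA at 13.6 and 21.6 CPM in PC9R stand far above PC9, while the vertical lines of KRT6A and SPRR1B are long in both lines.

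Per kilobase of the canonical transcript, SERPINB5 was highest in both lines, at 74.3 to 142 CPM per kb in PC9R and 68.3 to 187 CPM per kb in PC9. In PC9R, CSTA followed at 18.2 to 29.0 CPM per kb, then KRT6A at 0.938 to 30.9, SPRR1B at 2.30 to 26.0 and IVL at 9.75 to 17.9, and each of these overlapped the next in the order, though CSTA and IVL did not overlap. Below them came KRT5 at 1.16 to 1.59 CPM per kb and SPRR1A at 0.615 to 1.10, which did not overlap, and then KRT14 at 0.0363 to 0.0696 and SPRR3 at 0.0316 to 0.0661, which did. In PC9, KRT6A at 0.543 to 13.1 CPM per kb and SPRR1B at 0.659 to 12.1 came next after SERPINB5, and both overlapped KRT5 at 1.33 to 2.54. CSTA at 0.422 to 0.538 CPM per kb lay level with KRT14 at 0.383 to 0.653, and IVL at 0.102 to 0.124 lay within the range of SPRR1A at 0.0968 to 0.309. The levels per kb of SPRR1A and SPRR3, with 2 accessions each, may be too low, so their places in these orders are not firm.

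KRT6A and SPRR1B shared a property that was noticed after their values were seen: both were far higher in library 2 than in library 1 of each line. As the genes were picked with their values in each library known, the ranks below are a description. On the log2(CPM + 0.5) scale library 2 exceeded library 1 by 4.75 in PC9R and 4.13 in PC9 for KRT6A, and by 3.11 in PC9R and 3.14 in PC9 for SPRR1B. Ranked by the smaller of these differences, KRT6A was at rank 1 and SPRR1B at rank 2 of 12660 genes, ahead of AOX1 at 2.47 and HMGA2 at 2.23. KRT6A was the only tested gene over 10-fold higher in library 2 in both lines on this scale. KRT6B went the same way, at 20.8 and 90.4 CPM in PC9R, against 8.53 and 31.2 CPM in PC9. So did SERPINB3, a clade B serpin of squamous cells, at 0.228 and 2.08 CPM in PC9R, against 0.533 and 6.21 CPM in PC9. KRT16 and KRT15, whose levels are given below, went the other way and were lower in library 2 of both lines.

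The libraries 1 and 2 also differed by base composition. The 25% of genes with the lowest transcript GC content (42.1% or less) had a median difference between library 2 and library 1 of 0.77 in PC9R and 0.94 in PC9, and the 25% with the highest (57.6% or more) had one of -1.01 in PC9R and -1.06 in PC9. KRT6A has a GC content of 55.9% and SPRR1B of 52.7%, and 500 genes of like GC had medians of -0.47 in PC9R and -0.51 in PC9 around KRT6A, and of -0.25 in PC9R and -0.21 in PC9 around SPRR1B. SERPINB5, at 40.1% GC, had differences of 0.93 in PC9R and 1.45 in PC9, beside medians of 0.73 and 0.89 for genes of like GC. What set library 2 apart for KRT6A and SPRR1B was not tested.

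**Figure D2:**
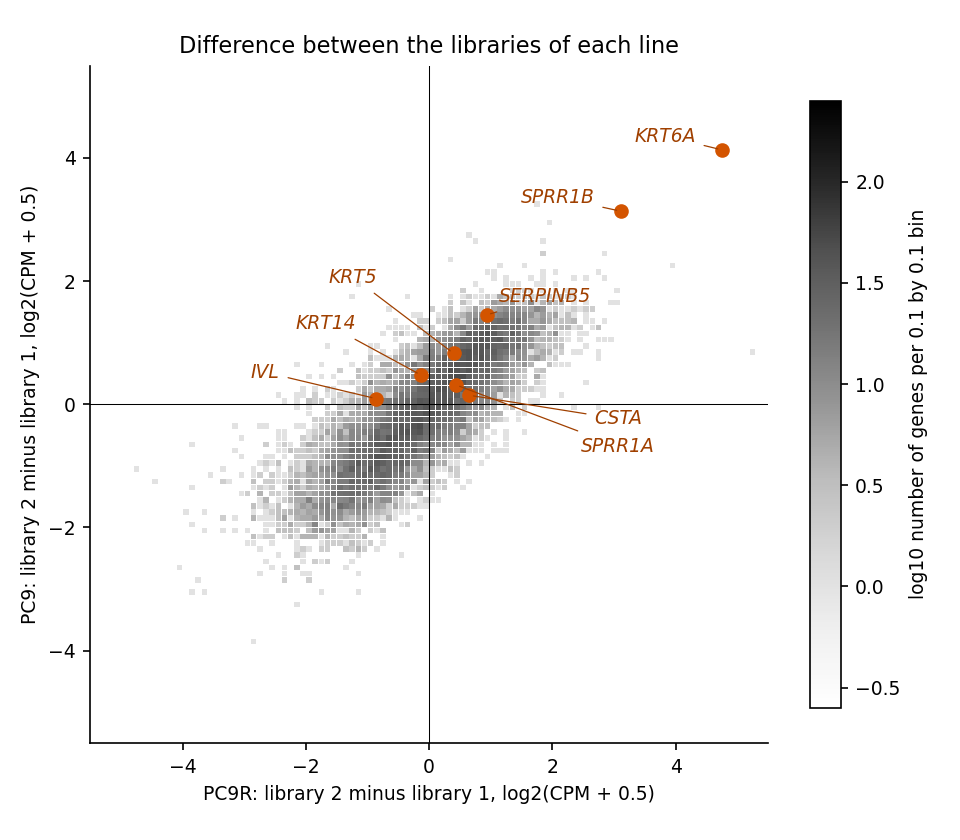
Library 2 minus library 1 in log2(CPM + 0.5), PC9R on the x axis and PC9 on the y axis, with the number of tested genes per bin in grey and the 8 tested genes in orange. KRT6A at 4.75 and 4.13 and SPRR1B at 3.11 and 3.14 lie beyond the cloud of all genes, and the other 6 lie inside it.

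Genes with RNA profiles close to IVL, by distance over the 4 libraries after centring log2(CPM + 0.5), were CTSO at 0.37, SLC6A14 at 0.46, CLDN8 at 0.56 and HUNK at 0.82. Those closest to CSTA were TDO2 at 0.29, THBD at 0.38, ZFP30 at 0.46 and FRAS1 at 0.46. In PC9, HUNK was at 0.0314 and 0 CPM, TDO2 at 0 and 0 CPM, and ZFP30 at 0 and 0.0667 CPM. At such levels the added 0.5 makes up most of the PC9 values, so closeness there partly reflects the floor. CTSO, a lysosomal cysteine protease gene, had 27.4 and 15.9 CPM in PC9R, against 0.0941 and 0.267 CPM in PC9, and THBD, the thrombomodulin gene, had 16.7 and 23.7 CPM in PC9R, against 0.690 and 0.868 CPM in PC9. The genes closest to SERPINB5 were NAPG, TRAM1, TM4SF1 and WASHC4, at 0.08 to 0.10.

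The chromatin of the 10 genes was read from peak lists of 1 library per line and assay, so differences between the lines have no replicate check and no test. The lists differ in length, with 59600 DHS peaks in PC9R and 19648 in PC9, and 117861 H3K4me2 peaks in PC9R and 85246 in PC9. A DHS peak within 1 kb of the start was present only in PC9R for CSTA and SERPINB5, only in PC9 for SPRR1A, and in neither line for the other 7. Among 20136 coding genes 16.5% had such a peak only in PC9R, 6.86% only in PC9, 23.1% in both and 53.6% in neither. An H3K4me2 peak was present at the start in both lines for IVL, SPRR1A, KRT5 and SERPINB5, where 63.3% of coding genes had one. It was present only in PC9R for CSTA, SPRR1B, SPRR3 and TP63, against 4.15% of coding genes, only in PC9 for KRT6A, against 1.67%, and in neither for KRT14, against 30.9%. Within 2.5 kb of the start, H3K4me2 was found only in PC9R for CSTA and TP63, and only in PC9 for none of the 10. It was found in neither line for KRT14 and in both for the other 7. Within 500 bp, KRT5 had H3K4me2 only in PC9, and the other genes kept their 1 kb class. So the width of the window decided the classes of SPRR1B, SPRR3, KRT6A and KRT5.

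CSTA had both kinds of peak at its start in PC9R and neither in PC9. An H3K4me2 peak at chr3:122043778-122044441 covered its start and exon, and a DHS peak at chr3:122044909-122045127 lay 814 bp downstream in an intron. The nearest PC9 peaks were 22788 bp away for DHS and 6008 bp away for H3K4me2. Within 50 kb of the CSTA start there were 10 DHS peaks in PC9R and 2 in PC9, and 12 H3K4me2 peaks in PC9R and 8 in PC9. More DHS peaks than this were found around 2.66% of coding genes in PC9R and 20.99% in PC9.

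IVL carried H3K4me2 at its start in both lines but more of it around the gene in PC9R. The peak over the start was 987 bp wide in PC9R (chr1:152880863-152881849) and 601 bp wide in PC9 (chr1:152880952-152881552), and both overlapped the promoter printed above. The PC9R peak held the AP-1 letters and the TATA box, whereas the PC9 peak held the TATA box and began after the AP-1 letters. Within 50 kb the PC9R list held 14 H3K4me2 peaks and the PC9 list 2, and more than this was found around 13.9% of coding genes in PC9R and 72.9% in PC9. One of the PC9R peaks, outside the transcript and 2245 bp before the start, has no PC9 counterpart, and the 300 bases at its centre (GRCh37, plus strand) are shown because they hold the AP-1 letters, in capitals.
IVL upstream peak, chr1:152878331-152878630: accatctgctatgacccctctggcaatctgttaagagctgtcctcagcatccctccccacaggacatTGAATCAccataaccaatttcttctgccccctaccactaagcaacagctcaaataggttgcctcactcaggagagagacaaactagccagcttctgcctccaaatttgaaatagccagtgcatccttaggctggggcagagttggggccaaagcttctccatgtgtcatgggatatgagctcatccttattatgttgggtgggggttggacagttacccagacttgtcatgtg
No DHS peak lay near this place, since the nearest to the IVL start was 11714 bp away in PC9R and 23831 bp away in PC9.

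The small proline-rich genes differed among themselves in chromatin as in RNA. At SPRR1A, a PC9 DHS peak at chr1:152956153-152956320 lay 237 bp before the start, overlapping the upstream end of the printed promoter and none of its marked letters, and the nearest PC9R DHS peak was 11099 bp away. SPRR1B had an H3K4me2 peak over its start only in PC9R (chr1:153003111-153003749), which covers both AP-1 matches of the printed sequence, and the nearest PC9 peak was 1611 bp away. SPRR3, with almost no counts in either line, had an H3K4me2 peak 410 bp before its start only in PC9R.

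Of the keratins, KRT5 had H3K4me2 peaks 531 and 976 bp before its start in PC9R and one 416 bp before it in PC9. KRT6A, on the same stretch of chromosome 12, had its closest H3K4me2 peak 399 bp before the start in PC9 and 1370 bp before it in PC9R. KRT14 had none within 1 kb, the nearest being 6504 bp away in PC9R and 5678 bp away in PC9. No DHS peak was found within 50 kb of KRT6A in either line.

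SERPINB5, the most abundant of the 10 transcripts per kilobase in both lines, had a DHS peak over its start only in PC9R (chr18:61144074-61144247), overlapping its first exon and covering the GC boxes printed above. That peak scored above only 12.9% of its list. The H3K4me2 over its start was 1 peak of 2469 bp in PC9, and in PC9R a peak of 869 bp with a further one of 737 bp in the intron. TP63, with 0 counts, had an H3K4me2 peak 240 bp before its long-form start only in PC9R, of 317 bp and scored above 19.3% of its list. Its internal start, from which the shorter form of basal cells is made (chr3, position 189507448), had no peak within 1 kb in any of the 4 lists.

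**Figure D3:**
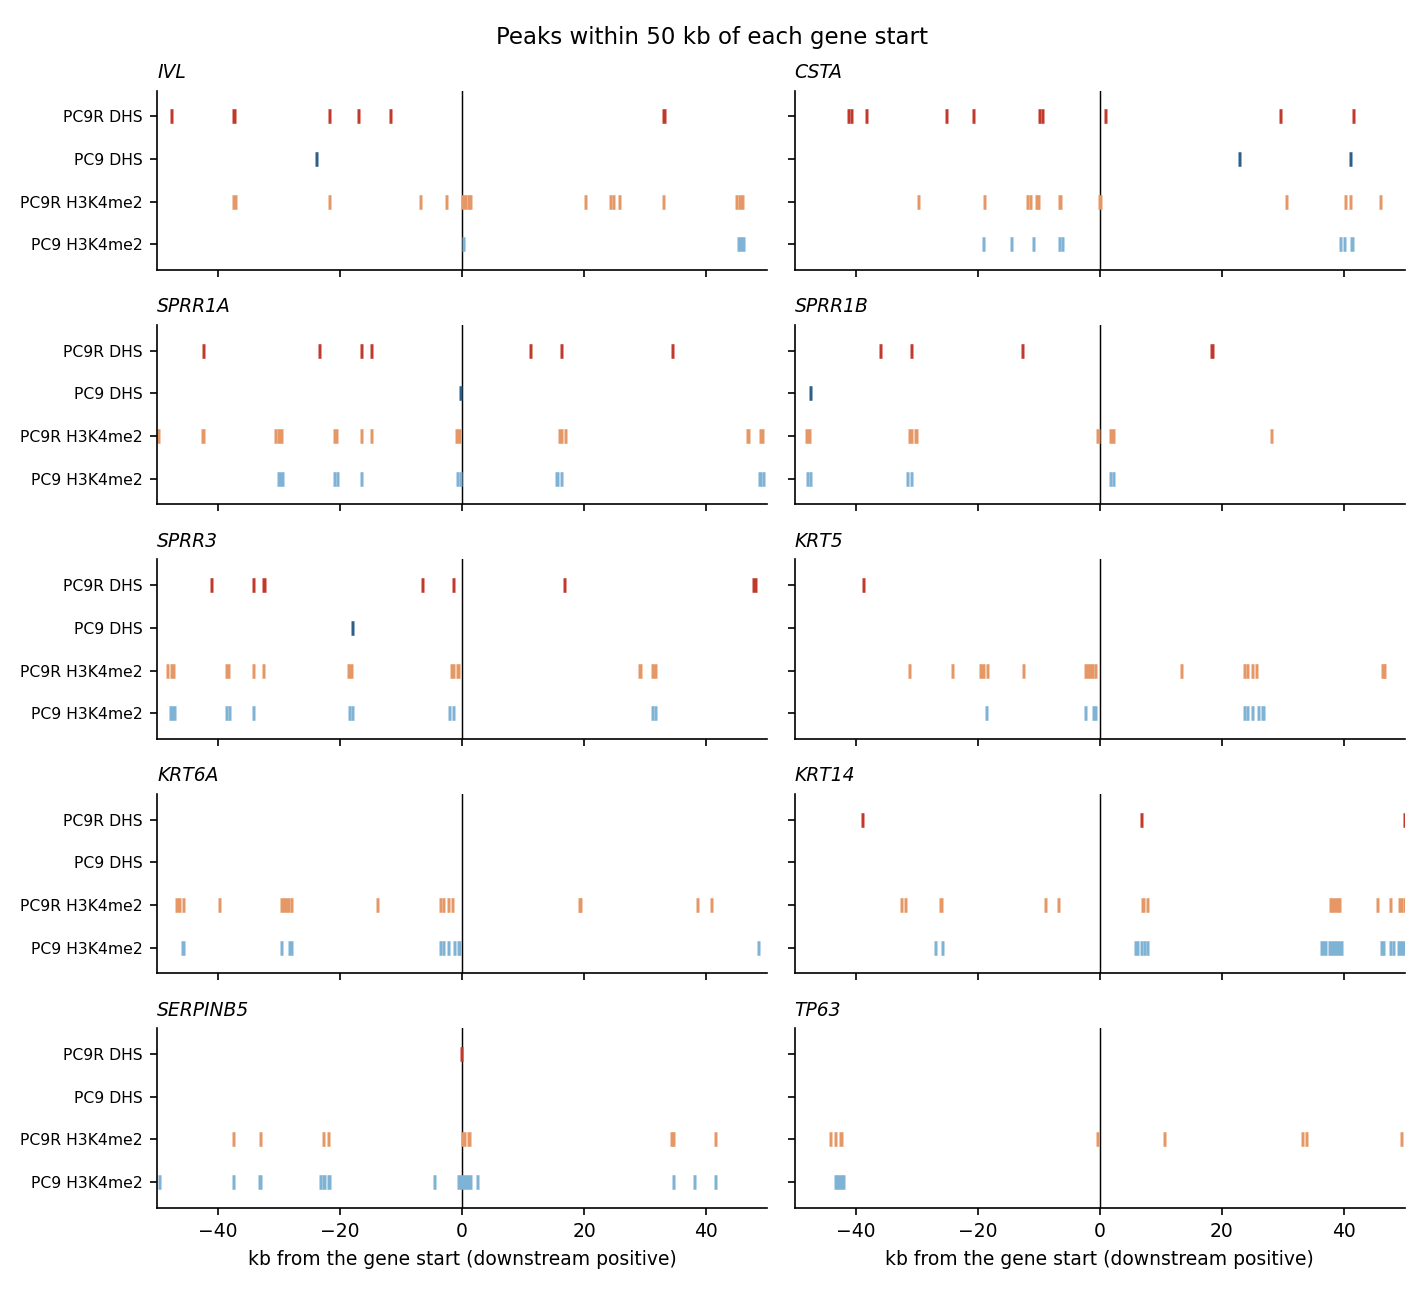
Peaks within 50 kb of each gene start, as kb from the start with downstream positive, in rows for PC9R DHS, PC9 DHS, PC9R H3K4me2 and PC9 H3K4me2 (marks are drawn at least 0.5 kb wide). IVL shows 14 H3K4me2 peaks in PC9R and 2 in PC9, and CSTA 10 DHS peaks in PC9R and 2 in PC9.

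Around the starts of the 10 genes no DHS peak of PC9R overlapped one of PC9, but KRT5, KRT6A, KRT14, SERPINB5 and TP63 had no PC9 DHS peak within 50 kb, so there none could. The windows of 50 kb overlap, as IVL, SPRR1A, SPRR3 and SPRR1B are neighbours and so are KRT5 and KRT6A, so each peak was counted once. None of the 28 PC9R DHS peaks overlapped a PC9 DHS peak, where 14.3% of the whole PC9R list did, and none of the 4 PC9 DHS peaks overlapped a PC9R one, where 43.2% of the whole PC9 list did. Around the internal start of TP63, which these counts leave out, a PC9R DHS peak 18623 bp downstream did overlap a PC9 one. For H3K4me2, 36 of 80 peaks in PC9R (45%, against 59.1% of the list) and 36 of 53 in PC9 (67.9%, against 70.2%) were shared. The median number of DHS peaks within 50 kb was 3.5 in PC9R and 0.5 in PC9 over the 10 genes, and 2 in PC9R and 1 in PC9 over coding genes. For H3K4me2 the medians were 12 in PC9R and 8.5 in PC9 over the 10 genes, and 7 in PC9R and 6 in PC9 over coding genes. The AP-1 letters were in the central 300 bases of 22.5% of the PC9R H3K4me2 peaks near the 10 genes (13.8% of the list) and of 15.1% of those in PC9 (13.5% of the list), and in 3 of the 28 PC9R DHS peaks (6.57% of the list) and 0 of the 4 PC9 DHS peaks (11.6% of the list).

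The complex that holds IVL and the small proline-rich genes held more DHS peaks in PC9R than in PC9 over most of its length. Across chr1:152056617-153321317, which spans 1.265 Mb, there were 69 DHS peaks in PC9R and 8 in PC9, and 52 H3K4me2 peaks in PC9R and 25 in PC9, by peak centre. Of the 24 bins of 50 kb that lie inside it, 21 held more DHS peaks in PC9R, 1 held more in PC9 and 2 were equal. For H3K4me2, 10 bins held more in PC9R, 2 held more in PC9 and 12 were equal. The PC9R lists are the longer ones for both marks, and bins across the whole genome were not counted. These bin counts therefore have no background share. Among 2246 windows of this length across the genome, 92.5% held fewer PC9R DHS peaks and 61.5% fewer PC9 DHS peaks. PC9R peaks made up 89.6% of the DHS peaks of the region, against a median of 77.0% over the 1688 windows with at least 10 such peaks, of which 81.6% had a lower share. The window before the region held 65 DHS peaks in PC9R and 24 in PC9, and the window after it 43 in PC9R and 21 in PC9, so a high PC9R count was not limited to the complex. For H3K4me2, 56.8% of the 2246 windows held fewer PC9R peaks and 45.4% fewer PC9 peaks. Both neighbouring windows held more H3K4me2 peaks than the region, with 145 before and 140 after it in PC9R, and 134 before and 100 after it in PC9.

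**Figure D4:**
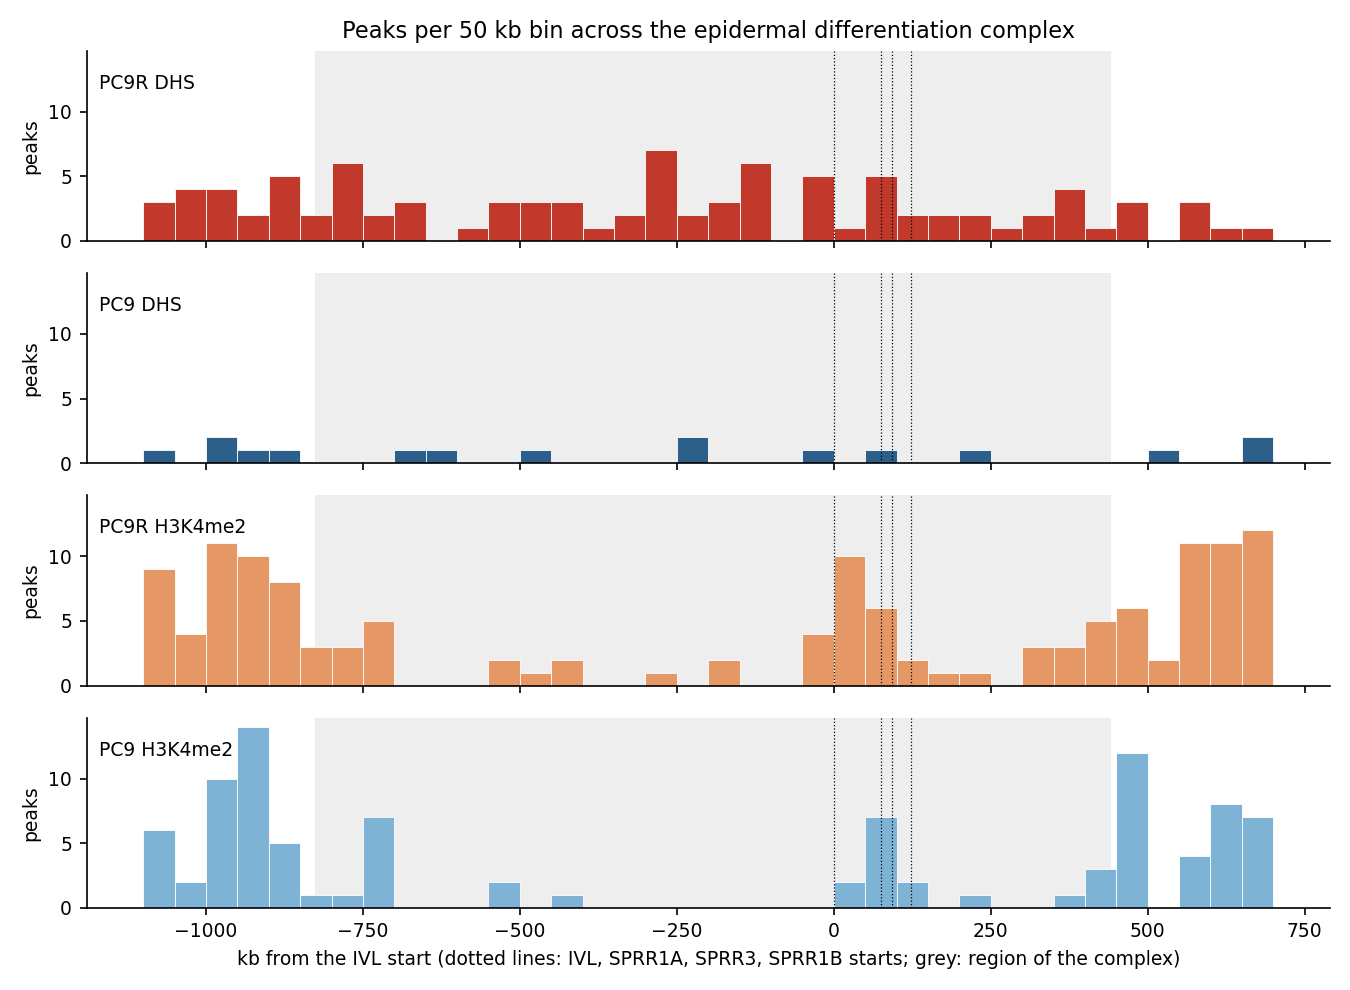
Number of peaks per 50 kb bin along the epidermal differentiation complex (grey), by distance in kb from the IVL start, for PC9R DHS, PC9 DHS, PC9R H3K4me2 and PC9 H3K4me2, with dotted lines at the starts of IVL, SPRR1A, SPRR3 and SPRR1B. PC9R DHS peaks reach 7 in a bin while PC9 DHS peaks reach 2, and H3K4me2 thins out over the middle of the complex in both lines.

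Other genes of the programme were read from 8 lists written with earlier results of these cells known. Of their 78 tested genes, edgeR called 0 in either direction at an adjusted p under 0.05, while 11 were higher and 0 lower at an unadjusted p under 0.05 (4.67% and 2.61% of all tested genes). DESeq2 called 7 higher (2.06% of all tested genes), TCHH, TGM2, EMP1, PI3, CLCA2, FGFBP1 and LAMB3, and 0 lower (0.948%), and limma-voom called 0 in either direction (0.427% and 0.15%). By library order, 21 had both PC9R libraries above both PC9 libraries (16.9% of all tested genes) and 9 both below (14.9%). Genes with few counts in PC9, such as TCHHL1 and CLCA2, may have passed the filter through PC9R alone, so nothing is read from these counts.

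In the rest of the complex, 2 of 38 genes passed the filter and 25 were at 0 in every library, among them LORICRIN, the gene of the main envelope protein of epidermis. Both genes that passed, TCHH (trichohyalin of the hair follicle's inner sheath) and its relative TCHHL1, had both PC9R libraries above both PC9 libraries (16.9% of all tested genes). TCHHL1 averaged 1.08 ± 0.44 CPM in PC9R and 0.13 ± 0.0057 CPM in PC9 (SD, n = 2 each). The filter may thus have kept TCHHL1 through PC9R alone, and nothing is read from 2 genes. TCHH had 11.6 and 6.48 CPM in PC9R, against 0.721 and 0.534 CPM in PC9, a log2 difference of 3.83 ± 0.73 with an adjusted p of 0.0844 in edgeR. PGLYRP4, an antimicrobial peptidoglycan-binding protein gene at the edge of the complex, was not tested, with 2.48 and 0.238 CPM in PC9R, against 0.0941 and 0 CPM in PC9.

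Of 27 genes of other envelope precursors and cross-linking enzymes, 17 were tested, 7 had both PC9R libraries above PC9 (16.9% of all tested genes) and 1 had both below (14.9%). TGM2, a widely expressed tissue transglutaminase, had 319 and 202 CPM in PC9R, against 54.3 and 21.2 CPM in PC9 (adjusted p 0.175, edgeR; 2 accessions). EMP1, a membrane protein gene of squamous epithelia, had 411 and 885 CPM in PC9R, against 77.9 and 169 CPM in PC9 (adjusted p 0.237, edgeR). PI3, whose product elafin is a protease inhibitor fixed into the envelope, had 214 and 337 CPM in PC9R, against 63.8 and 52.5 CPM in PC9 (adjusted p 0.188, edgeR). ALOX12B, an epidermal lipoxygenase gene, had 4.96 and 1.96 CPM in PC9R, against 0.784 and 0.534 CPM in PC9. CSTB, a relative of CSTA, had the highest CPM of the list and averaged 804 ± 169 CPM in PC9R and 998 ± 319 CPM in PC9, and PPL, the periplakin gene, 475 ± 270 CPM in PC9R and 565 ± 305 CPM in PC9 (SD, n = 2 each), and both overlapped between the lines.

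Of 13 tested keratins of stratified epithelia, 3 had both PC9R libraries below both PC9 libraries (14.9% of all tested genes), 0 had both above (16.9%), and edgeR called 0. KRT16, a stress keratin and partner of KRT6A, had 21.2 and 11.9 CPM in PC9R, against 53.3 and 29.9 CPM in PC9, and KRT15, a basal keratin, had 95.9 and 54.9 CPM in PC9R, against 167 and 111 CPM in PC9. So KRT16 lay lower in PC9R within each library number, where KRT6A and KRT6B lay higher. KRT10, a suprabasal keratin, averaged 118 ± 19.3 CPM in PC9R and 89.5 ± 25.9 CPM in PC9 (SD, n = 2 each), and its lines overlapped. Simple keratins overlapped between the lines. KRT7 averaged 7243 ± 2647 CPM in PC9R and 8740 ± 4882 CPM in PC9, and KRT19 averaged 5388 ± 3314 CPM in PC9R and 5975 ± 4406 CPM in PC9 (SD, n = 2 each). Of 6 tested desmosome genes, 2 had both PC9R libraries below PC9 and 0 above, beside the same 14.9% and 16.9% of all tested genes, and edgeR called 0. With so few genes, nothing is read from these counts. DSP, the desmoplakin gene, had 178 and 159 CPM in PC9R, against 266 and 278 CPM in PC9, whereas JUP (plakoglobin), PERP and DSG2 overlapped, and DSC3, DSG3, DSG4 and PKP1, of which DSC3 and DSG3 belong to basal squamous layers, were listed at 0 in every library. DSC3, DSG4 and PKP1 have 2 accessions each, so their 0 has the same limit as that of TP63.

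Of 25 transcription factors of squamous cells 18 were tested, with 5 above (16.9% of all tested genes) and 2 below PC9 (14.9%) in both PC9R libraries. ELF3, an epithelial ETS factor, was above, at 2.46 ± 0.954 CPM in PC9R and 0.831 ± 0.421 CPM in PC9 (SD, n = 2 each). GRHL1, a grainyhead factor of desmosome genes, was below, with 55.3 and 82.7 CPM in PC9R, against 143 and 171 CPM in PC9. CEBPB and GRHL2, the factors with the highest CPM, overlapped, with log2 fold changes of 0.06 ± 0.65 for CEBPB and 0.05 ± 0.49 for GRHL2 (SE).

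Of 25 genes known as p63 targets or basal cell genes 14 were tested, with 7 above (16.9% of all tested genes) and 1 below PC9 (14.9%) in both PC9R libraries. LAMB3, a chain of the basement membrane laminin of epidermis, had 46.6 and 38.2 CPM in PC9R, against 10.4 and 10.8 CPM in PC9 (adjusted p 0.282, edgeR; 3 accessions). COL17A1, the hemidesmosome collagen gene, had 11.3 and 8.80 CPM in PC9R, against 2.20 and 3.54 CPM in PC9 (adjusted p 0.457, edgeR). FGFBP1, a carrier of fibroblast growth factors, had 4.87 and 5.17 CPM in PC9R, against 0.690 and 0.734 CPM in PC9, and CLCA2, a p63 target of squamous cells, had 5.30 and 0.951 CPM in PC9R, against 0 and 0.200 CPM in PC9. CLCA2 had 3 counts over both PC9 libraries, and its ratio of summed counts was 60.8 with a counting interval of 20.5 to 297. The filter may thus have kept CLCA2 through PC9R alone. SFN, with the highest CPM of the list, overlapped between the lines.

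Beside SERPINB5 on chromosome 18, 4 of the 11 listed serpins and neighbours were tested and all overlapped between the lines. Of these the neighbours VPS4B and BCL2 had the highest CPM. VPS4B averaged 194 ± 59.9 CPM in PC9R and 186 ± 89.4 CPM in PC9, and BCL2 averaged 6.57 ± 2.73 CPM in PC9R and 4.57 ± 1.18 CPM in PC9 (SD, n = 2 each). Markers of other cell types were low beside the epithelial sum: summed levels were 14.4 to 65.2 CPM in PC9R and 6.47 to 24.5 CPM in PC9 for 8 fibroblast genes (DCN at 0), 13.7 to 17.6 CPM in PC9R and 8.68 to 8.75 CPM in PC9 for 7 leukocyte genes (ITGAM at 0), and 20.1 to 46.8 CPM in PC9R and 12.7 to 22.4 CPM in PC9 for 5 endothelial genes (none at 0). Their part in the levels of IVL and CSTA was not tested.

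**Figure D5:**
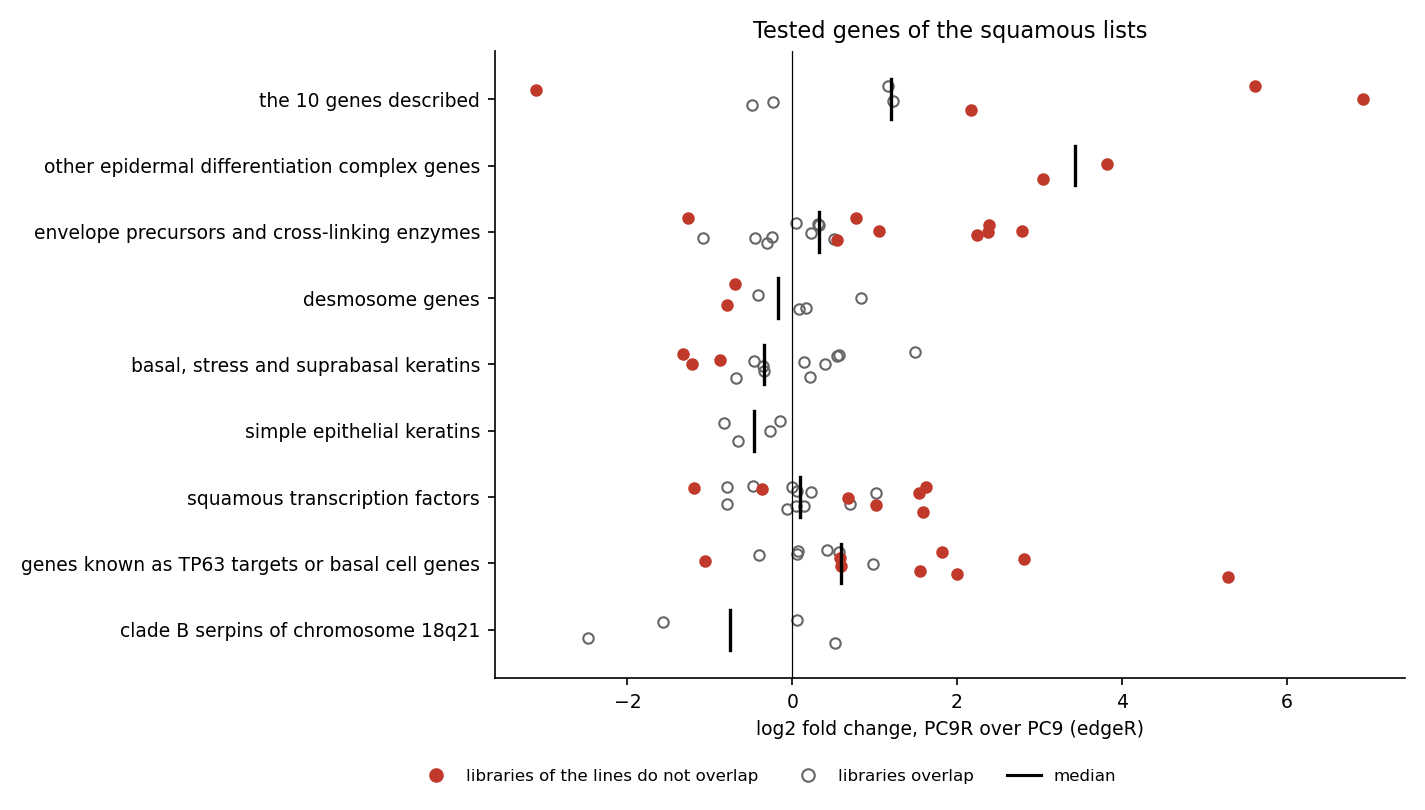
Log2 fold change, PC9R over PC9, of each tested gene of the 10 described and of 8 further lists, filled where the libraries of the lines do not overlap, with a bar at the median. IVL at 6.93 and CSTA at 5.62 lie farthest to the right, and keratins of both kinds have medians below 0.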

How the data were processed

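RNA-seq, DHS and H3K4me2 libraries of PC9R and PC9 were grouped by line and assay as titled. The deposited RNA files hold the authors' raw counts per RefSeq accession. Each deposited peak file is the list of 1 library, with the authors' score for every peak. The scale of that score is not stated, so it served only to rank or filter peaks inside a list. Per the submitters' processing notes the build was hg19 and the tools included TopHat, HTSeq, DESeq and MACS2, without roles or versions.

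Counts of 42811 accessions (41556 matched to a symbol in the RefSeq table of GRCh38.p14, used for names only) were summed per gene. Unmatched accessions, 0.668% to 0.824% of the counts, were kept as features of their own. PC9R was compared with PC9 by edgeR 4.0.16 in R 4.3.3 (TMM, filterByExpr, quasi-likelihood F test, two-sided, Benjamini-Hochberg over 12660 genes) without a block. Total counts were 32502455 and 16715426 in PC9R and 32515891 and 16013058 in PC9. With 2 libraries a line, p-values measure only the spread between libraries, which may be technical, and counting intervals (95%, exact) and floors cover counting error only. Log2(CPM + 0.5) was used for differences between single libraries. The RNA script was tested on simulated data with less spread between libraries than here and no effect of library number. That test does not check the fit under the conditions of these data.

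Starts, exons and transcript lengths came from GENCODE 44 lifted to GRCh37 (Ensembl canonical transcripts). Peaks were counted within 1 kb and 50 kb of a start at an overlap of at least 1 bp. Promoters of GRCh38.p14 were placed on GRCh37 by exact match. The SPRR3 and KRT5 starts of RefSeq lie 2 and 136 bases downstream of those of GENCODE.

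The 10 genes and all lists were chosen with earlier results of these data known. List genes were named by rule: up to 4 called genes with the largest fold change, or with none called the 2 with the highest mean CPM, with the same rule applied to a fit with library number as a term. Some genes that the rule selects are not reported here. Genes named beyond the rule (AOX1, HMGA2, NKX2-1, markers at 0) were chosen after their values were seen. The alternatives tried were upper quartile and RLE scaling, a stricter filter or none, library number as a block, DESeq2 1.42.0, limma-voom (limma 3.58.1), 1 accession per gene, each library left out, and other windows and subsets of peaks.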

Additional observations from a re-analysis of the deposited data

How the results depend on the processing

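For the 8 tested genes, all 62 log2 fold changes under other scalings, filters, tools and single accessions, and with library number as a term, moved by less than the spread between libraries. The edgeR calls of IVL and CSTA ended with upper quartile scaling alone, at adjusted p of 0.0536 and 0.0563; over the other alternatives the adjusted p of IVL was 3.72e-15 to 0.0349 and that of CSTA 6.24e-11 to 0.0406. Leaving out 1 library gave log2 fold changes of 6.42 to 7.29 for IVL, 5.24 to 5.92 for CSTA, 1.42 to 3.01 for SPRR1A (2.17 with all libraries), -3.68 to -2.74 for KRT14, -2.88 to 4.86 for KRT6A, -1.47 to 4.39 for SPRR1B, -0.89 to 0.02 for KRT5 and -0.80 to 0.64 for SERPINB5; where a line then had 1 library, it was taken to vary like the other line. Over all genes, 32 were called by edgeR, against 0 with upper quartile scaling (919 genes had an unadjusted p under 0.05), 440 without a filter, 381 with DESeq2, 73 with limma-voom and 83 to 254 without 1 library; the cause was not tested.

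Library numbers are shared between the lines, but the labels tie no number to a culture or day. Libraries of the same number were alike in depth, and the shift with GC content went the same way in both lines. Whether they were handled together is not in the labels. The difference between library 2 and library 1 correlated between the lines across genes, at 0.79. With the replicate block 2631 genes were called (20.8% of those tested), 1420 higher and 1211 lower, on 1 residual degree of freedom. Of the 8 genes 4 were then called higher (IVL, CSTA, KRT6A and SPRR1B) and 1 lower (KRT14), and of the 78 genes in the lists 26 were called, 20 higher and 6 lower (background 11.2% and 9.57%), in place of 0.

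Of the 10 genes, those with a DHS peak at the start in PC9R numbered 1 in place of 2 within 500 bp (SERPINB5) or among the 50% of peaks with the highest scores (CSTA), and those with an H3K4me2 peak in PC9 numbered 2 (SPRR1A and SERPINB5) in place of 5 among such peaks. Within 2.5 kb, 9 of the 10 had an H3K4me2 peak in PC9R and 7 in PC9; those with one only in PC9R numbered 2 in place of 4, and those with one only in PC9 numbered 0 in place of 1. The median percentile of the 10 genes for peaks within 50 kb, among coding genes, was 59.4 for DHS in PC9R (39.5 among the 50% with the highest scores), 18.6 for DHS in PC9 (0 within 25 kb, 43.8 within 100 kb, 0 among these), 73.4 for H3K4me2 in PC9R (42.7 among these) and 64.7 for H3K4me2 in PC9 (17.0 among these); the cause was not tested.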
